A study of Mus musculus with 120 samples.

Results

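Untreated bone-marrow-derived macrophages were compared at time T4 and time T0, using the 12 control libraries of each time, out of 120 libraries in the series. The members were chosen by their labels alone, as the libraries labelled Control at time 4 and at time 0, and no compound is labelled in either. Both groups came from wild-type male C57BL/6 mice aged 12 weeks, and the cells were grown from bone marrow in medium with serum and CMG, transduced with the 58-TF-seq virus, and moved to 96-well plates. The times carry no unit, and no label states which libraries received bacterial lipopolysaccharide (LPS), so T4 is read from the series design as the later of the times after LPS and T0 as the start. The 12 control libraries of T1 entered the same fit and are used below to place the changes in time. Nothing in the labels says that the replicates were separate cultures or animals, and p-values here therefore reflect library-to-library spread, which may be technical.

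Macrophages detect LPS through Toll-like receptor 4 with the co-receptor Cd14, and signal through Myd88 to NF-kB and, from endosomes, to interferon regulatory factors. The best known outcome is a rise of cytokine, chemokine and antiviral mRNAs. The resting macrophage, in contrast, spends its mRNA on clearing debris: it depends on the growth factor receptor Csf1r and on factors such as Cebpa, takes up particles and lipoproteins through scavenger receptors, degrades them in acid lysosomes and passes on or stores the cholesterol and iron.

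The libraries counted 3′ ends and were shallow, with 54649 to 114061 counts at T4 and 40579 to 75083 at T0. The ribosomal precursor RNA Rn45s took 38.0 ± 4.76% of counts at T4 and 47.7 ± 3.21% at T0 (SD, n = 12 each; permutation test, adjusted p = 5.00e-05 over 5 library measures, the smallest value its resamples could give). Replicates 2 and 9 of T4 and replicate 9 of T0 had the lowest Rn45s shares of their groups, at 29.7, 27.0 and 38.9%. The labelled sex did not match the counts: the animals are labelled male, but Xist, the X-inactivation RNA, had 9 to 73 counts in each of the 36 control libraries, while the Y-linked genes Ddx3y, Eif2s3y, Kdm5d and Uty had 0 counts in all of them. Tsix lies antisense to Xist and its counts cannot be told apart from those of Xist, because the strand setting is not given. All groups shared this pattern, and no comparison below rests on the label. Of 10 macrophage markers none was at 0 in either group, but Lyz2 had only 1 count at T4 and 5 at T0, and Mertk 7 and 2. Normalised counts are counts divided by the relative size of each library, on 1 scale for the 36 control libraries. On that scale the macrophage markers summed to 117 to 166 (median 143) at T4 and 191 to 256 (median 221) at T0. Markers of B cells, T and NK cells and erythroid and mast cells held 0 to 2 counts per group. The 12 neutrophil markers summed to 9.71 to 37.3 normalised counts at T4 and 21.1 to 33.9 at T0, with Elane, Prtn3 and Retnlg at 0. The largest counts among them were those of S100a9 (98 at T4 and 115 at T0) and S100a8 (75 and 96), and Cxcr2 had 44 and 16. The 10 dendritic markers had 35 counts at T4 and 11 at T0, and the 10 fibroblast markers 47 and 8. Flt3, Clec9a, Col3a1 and Dcn were at 0 in both groups. Most counts came from the dendritic markers Xcr1 (20 at T4 and 3 at T0) and Ccr7 (11 and 4) and the fibroblast marker Acta2 (39 and 7). The part of these few counts in any result was not tested.

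Among 708 genes with enough counts for the first filter, 254 (35.9%) were lower and 268 (37.9%) higher at T4 than at T0 (edgeR's quasi-likelihood test, Benjamini-Hochberg adjusted p under 0.05). With scaling factors taken from all genes before the filter, 148 were lower and 303 higher. Because the number of falls moved with the scaling, a gene is said below to have fallen or risen only where it passed in the same direction under each of 5 scalings (4 for genes that only the wider filter below reached), unless another count is named. The median log2 fold change of all 708 genes was -0.07 in the first scaling and lay between -0.14 and 0.17 over the 5, and each fold change below is from the first. That rule left 148 lower genes (20.9%) and 258 higher genes (36.4%). The falls were smaller than the rises: the median was -0.99 log2 among falls and 2.13 among rises, and 20 falls but 137 rises went past 4-fold. In 31 of the 708 genes (4.38%) each T4 library lay below each T0 library, and in 161 (22.7%) each lay above. A wider filter reached 1915 further genes of low count, of which 365 (19.1%) were lower and 390 (20.4%) higher in each of 4 scalings. Over all 2623 genes of that filter, 555 (21.2%) were lower and 705 (26.9%) higher in its first scaling. A gene absent at T4 enters either filter only through its counts at the earlier times, and a gene absent at T0 only through the later ones, so these counts describe the genes tested and not the whole transcriptome. Without the 3 libraries of low Rn45s share, 303 genes were lower and 288 higher of 824 tested. Because cells were lysed in bulk, fewer cells of a type and less RNA per cell cannot be told apart.

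The genes lower in all 5 scalings held 6.80 to 7.84% of the counts outside Rn45s in T4 libraries, against 14.5 to 16.4% in T0 libraries. The higher genes held 34.0 to 36.3% in T4 libraries, against 7.83 to 8.81% in T0 libraries. Since these genes were picked for their direction, the shares only describe how much of each library they fill.

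**Figure D1:**
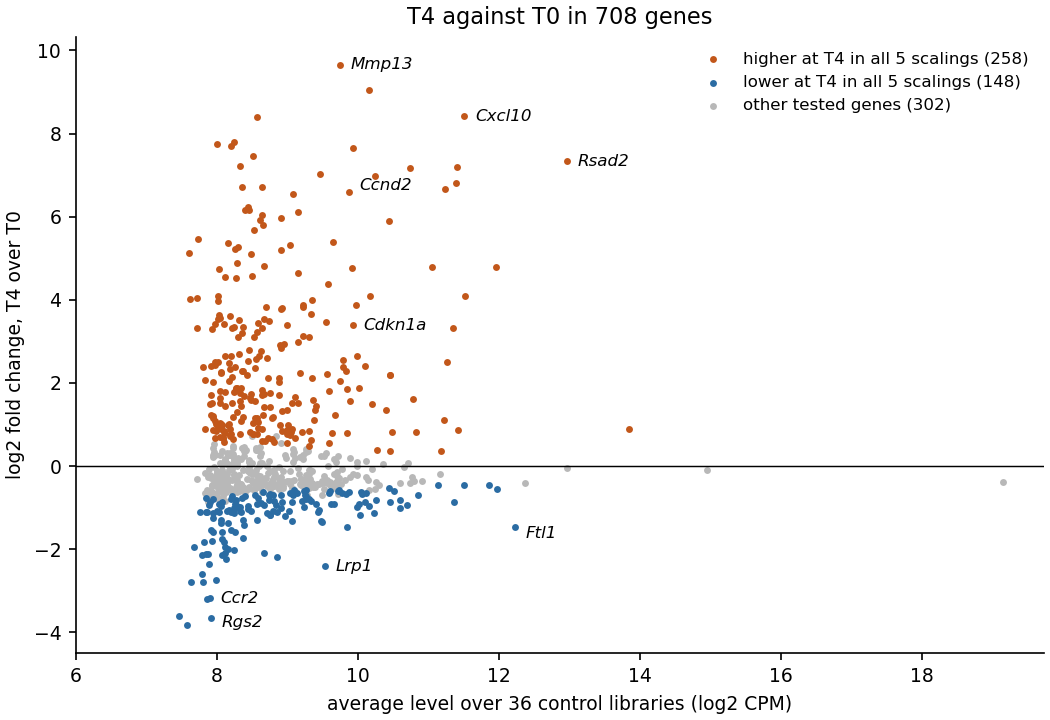
Each point is 1 of 708 tested genes, with its average level over 36 control libraries (log2 CPM) on the x axis and its fitted log2 fold change, T4 over T0, on the y axis. The 258 genes higher in all 5 scalings are orange and reach further from 0 than the 148 lower ones in blue, and fitted values of genes without counts at T0, such as Mmp13, depend on the prior count of the fit.

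Some receptors on the surface of the resting macrophage, such as Lrp1 and Nrp1, were among the 20 falls past 4-fold in the first filter. Lrp1, the endocytic receptor for lipoproteins and protease complexes (chr10:127538157-127621148 in GRCm38), had 5.12 to 14.6 (median 9.48) in T4 libraries, against 32.7 to 63.7 (median 48.4) in T0 libraries, in normalised counts (log2 fold change -2.41, SE 0.16, adjusted p = 1.54e-19). The groups did not overlap. Nrp1, a co-receptor for semaphorins and VEGF, had 0.855 to 17.0 (median 6.62) in T4 libraries, against 22.3 to 39.6 (median 27.5) in T0 libraries (log2 fold change -2.18, SE 0.22, adjusted p = 4.60e-13). Csf1r, the receptor for the growth factor that keeps macrophages alive, had 19.7 to 40.5 (median 31.0) in T4 libraries, against 54.8 to 77.9 (median 69.0) in T0 libraries (log2 fold change -1.14, SE 0.12, adjusted p = 1.05e-12). Both were lower in each T4 library than in any T0 library. Sirpa, the receptor for the CD47 signal that restrains phagocytosis, fell by 1.45 log2, and Trem2, a lipid-sensing receptor that signals through Tyrobp, by 1.08, both without overlap. The inhibitory receptor Cd300a (-2.08) and Clec7a, the beta-glucan receptor dectin-1 (-1.58), were lower with some overlap. Other uptake receptors went up: Msr1, the class A scavenger receptor, by 1.85 log2 and Axl, which binds the bridging protein on dying cells, by 0.78. Of 6 scavenger and endocytic receptors in the first filter 2 fell and 3 rose, beside 20.9 and 36.4% of all genes, and of 5 low-count ones 3 fell and 0 rose, beside 19.1 and 20.4%.

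Several chemokine receptors and signalling proteins were also low at T4. Ccr2, the monocyte chemokine receptor (chr9:124101918-124109140), had 0 to 3.70 (median 1.85) in T4 libraries, against 4.59 to 25.6 (median 16.4) in T0 libraries (log2 fold change -3.19, SE 0.32, adjusted p = 5.02e-13). Rgs2, which switches off G protein alpha subunits (chr1:143999338-144004149), had 0 to 5.12 (median 1.247) in T4 libraries, against 13.8 to 28.9 (median 21.2) in T0 libraries (log2 fold change -3.67, SE 0.27, adjusted p = 5.32e-18). In both genes the highest T4 library was below the lowest T0 library. Cx3cr1, the fractalkine receptor, had 9 counts over the 12 T4 libraries, against 129 over the 12 T0 libraries (log2 fold change -3.90, SE 0.43, adjusted p = 2.59e-13, wider filter). Cxcr4, the receptor for Cxcl12, had 1 count over the 12 T4 libraries and 79 over the 12 T0 libraries, a ratio of T4 to T0 of 0.00892 on the normalised scale with an exact 95% counting interval of 2.23e-04 to 0.0512. The G protein subunit Gnai2, which these receptors share, fell by 0.92 log2, while Gna13 rose by 0.77. The chemokine receptor-like Ccrl2 went the other way, with 137 counts at T4 and 1 at T0. More raw counts at T4 were also found for the chemokine receptors Cxcr2 (44 at T4 and 16 at T0), Xcr1 (20 and 3) and Ccr7 (11 and 4). The T4 libraries were deeper, and these 3 genes are given by their counts alone. Over the list of G protein-coupled receptors, which is not limited to chemokine receptors, 4 of 6 genes in the first filter fell and 1 rose, beside 20.9 and 36.4% of all genes. Of its low-count genes 5 of 12 fell and 2 rose, beside 19.1 and 20.4% of all genes that only the wider filter reached.

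**Figure D2:**
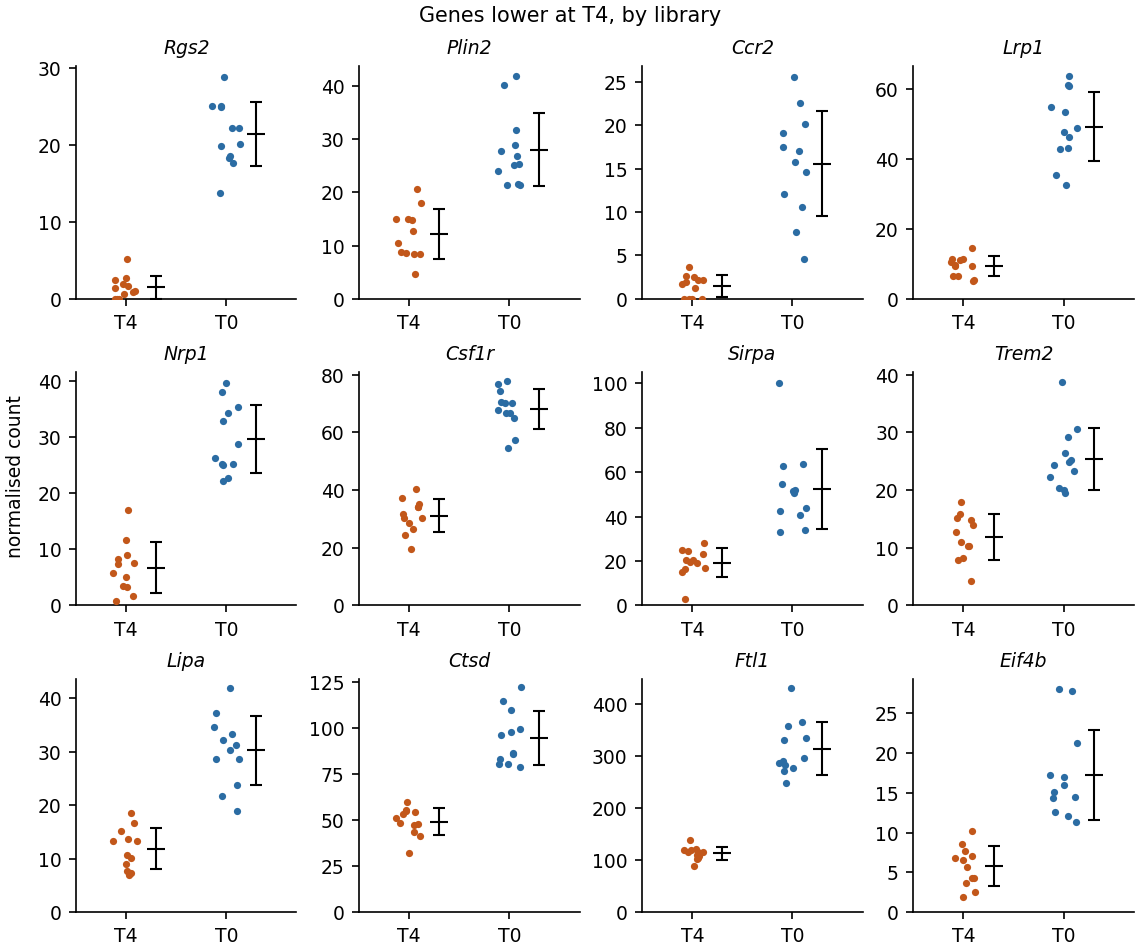
Normalised counts of 12 genes in each of the 12 T4 libraries (left, orange) and 12 T0 libraries (right, blue), with the mean and SD beside each group and each y axis starting at 0. In all 12 genes each T4 library lies below each T0 library.

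Growth factor and guidance receptors split, with 5 falls and 4 rises among 11 listed genes in the first filter, beside 20.9 and 36.4% of all genes. Tgfbr1, a TGF-beta receptor, had 7 counts over the 12 T4 libraries, against 89 over the 12 T0 libraries (log2 fold change -3.74, SE 0.46, adjusted p = 3.47e-11, wider filter), whereas the TNF receptor Tnfrsf1b rose by 2.18 log2 and Nrp2, the paralogue of Nrp1, by 1.33. Further members of the TGF-beta list that fell were the co-repressor Ski (-2.53) and Thbs1, thrombospondin, which activates latent TGF-beta (-1.42). Pmepa1, a feedback gene of the same pathway, rose by 1.79.

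Some transcription factors of the resting state were lower as well, though listed factors did not fall as a class. Cebpa, the myeloid lineage factor, had 4 counts over the 12 T4 libraries, against 90 over the 12 T0 libraries (log2 fold change -4.29, SE 0.50, adjusted p = 4.36e-12, wider filter). The myocyte enhancer factors Mef2a (-1.99) and Mef2c (-3.08) and the ETS factor Fli1 (-3.17) fell too, and Pparg, the nuclear receptor for fatty acid ligands, had 1 count at T4 and 37 at T0 (ratio 0.0191, exact 95% counting interval 4.70e-04 to 0.113). Against these stood rises of Klf6 (1.87) and Junb (1.56), which respond early to stimuli, and Batf, an AP-1 factor of activated cells, had 100 counts at T4 and 2 at T0. The interferon regulatory factor Irf8 rose by 2.04. In the first filter 4 of 14 listed factors fell and 5 rose, near the 20.9 and 36.4% of all genes, and among low-count ones 8 of 26 fell and 9 rose, beside 19.1 and 20.4%. The list of macrophage identity genes, in comparison, had 7 of 11 lower, beside 20.9% of all genes, and 1 higher, which was Cd14 (1.81). The median of that list was -0.83 log2, beside -0.07 over all 708 genes.

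Chromatin regulators held both large falls and rises. The deacetylase Hdac5 had 2 counts at T4 and 47 at T0 (ratio 0.0300, exact 95% counting interval 0.00353 to 0.115), and the chromatin protein Hmgb1 fell by 1.75 log2. The methylcytosine dioxygenase Tet2 rose by 3.00, the bromodomain reader Brd2 by 1.44 and the replacement histone H3f3b by 1.35. In the first filter 2 of 13 listed members fell and 4 rose, beside 20.9 and 36.4% of all genes. Among low-count members 7 of 14 fell and 2 rose, beside 19.1 and 20.4% of all genes that only the wider filter reached.

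Abundant lysosomal enzymes were mostly lower at T4. Of 17 tested genes on the list of hydrolases and cathepsins, which also holds the protease inhibitors Cst3 and Cstb and the non-enzymes Grn, Psap and Npc2, 14 were lower and 1 higher in the first scaling, beside 35.9 and 37.9% of all genes, and 10 were lower in all 5 scalings, beside 20.9%. Cst3, Cstb, Grn and Psap are 4 of those 14, and Psap is the 1 among them that was lower in all 5. Of 14 low-count members 5 fell and 0 rose, beside 19.1 and 20.4% of all such genes. The first-filter median was -0.69 log2, and -0.57 and -0.45 under the scalings that moved all genes upwards. Ctsd, the aspartic protease cathepsin D, had 32.3 to 59.7 (median 49.6) in T4 libraries, against 78.6 to 122 (median 91.3) in T0 libraries (log2 fold change -0.94, SE 0.10, adjusted p = 9.82e-13). Lipa, the acid lipase that frees cholesterol from lipoprotein esters, had 7.03 to 18.6 (median 12.0) in T4 libraries, against 18.8 to 41.9 (median 30.9) in T0 libraries (log2 fold change -1.32, SE 0.16, adjusted p = 9.67e-11). Neither gene overlapped between the groups. The cysteine proteases Ctsl (-1.18) and Ctss (-0.83) fell, and so did Dnase2a, the acid DNase (-2.34). Ctsc, which activates granule serine proteases, went the other way, with 40.8 to 70.8 (median 54.1) in T4 libraries, against 0 to 21.2 (median 12.3) in T0 libraries (log2 fold change 2.11, SE 0.21, adjusted p = 2.73e-13). Every T4 library exceeded every T0 library for Ctsc.

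Promoters of genes at opposite ends of the comparison are shown next, because the CLEAR E-box, the palindrome bound by the lysosomal regulator Tfeb and its relatives, and the ETS motif, bound by factors such as Spi1, were searched in the genes that fell and the interferon-stimulated response element in those that rose. Each line gives the last 120 bases before the transcript start that the RefSeq promoter table uses, read 5′ to 3′ on the gene's strand, from RefSeq on GRCm38.p6, and capitals mark a match to one of these motifs on either strand. Ctsd lies at chr7:142387828-142387947 (minus strand) and Osbpl8, a lipid exchange protein of the endoplasmic reticulum, at chr10:111164682-111164801 (plus strand), and both hold the CLEAR E-box TCACGTGA. The gene intervals of Laptm5, Nrp1 and Osbpl8 begin further upstream, at another transcript start, so the windows of Laptm5 and Nrp1 lie inside the annotated gene and that of Osbpl8 lies partly inside it.
Ctsd: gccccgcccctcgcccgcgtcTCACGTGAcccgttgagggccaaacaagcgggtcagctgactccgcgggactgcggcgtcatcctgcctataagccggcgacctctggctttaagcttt
Osbpl8: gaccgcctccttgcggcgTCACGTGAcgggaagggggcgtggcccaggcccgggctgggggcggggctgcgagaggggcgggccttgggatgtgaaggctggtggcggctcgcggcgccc
The ETS motif GAGGAAG was found at chr17:48346281-48346400 (plus strand) for Trem2, at chr4:130913196-130913315 (plus strand) for Laptm5, a lysosomal membrane protein, and at chr8:128358953-128359072 (plus strand) for Nrp1.
Trem2: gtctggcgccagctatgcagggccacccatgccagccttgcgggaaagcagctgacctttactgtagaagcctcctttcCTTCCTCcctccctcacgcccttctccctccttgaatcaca
Laptm5: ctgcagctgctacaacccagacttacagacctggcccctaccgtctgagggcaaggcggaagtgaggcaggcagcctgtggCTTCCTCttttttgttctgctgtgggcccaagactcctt
Nrp1: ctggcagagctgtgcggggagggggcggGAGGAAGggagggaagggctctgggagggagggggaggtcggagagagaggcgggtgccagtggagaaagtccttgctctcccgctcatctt
For contrast, the antiviral genes Rsad2 at chr12:26456453-26456572 (minus strand) and Isg15 at chr4:156200819-156200938 (minus strand) hold the response element, searched as GAAA, any 2 bases and GAAA again.
Rsad2: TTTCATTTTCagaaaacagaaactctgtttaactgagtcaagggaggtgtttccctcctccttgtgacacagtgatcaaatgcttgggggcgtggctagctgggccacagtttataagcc
Isg15: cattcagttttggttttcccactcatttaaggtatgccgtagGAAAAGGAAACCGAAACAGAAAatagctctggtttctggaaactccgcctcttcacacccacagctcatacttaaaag

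In windows from 250 bases before to 50 after the start, the CLEAR E-box was found in 8 of 120 genes that fell (6.67%), 2 of 212 that rose (0.943%) and 2.49% of the other tested genes, with 1.01% over all 27025 genes with a window. Among the 15 lysosomal hydrolase genes with a window 1 held it. In genes that only the wider filter reached, the E-box was in 14 of 286 falls (4.895%), 9 of 297 rises (3.03%) and 2.83% of all. The difference between falls and rises was therefore smaller in those genes. The ETS motif was in 26.7% of the genes that fell, 15.6% of those that rose and 16.6% of the other tested genes, with 13.5% over all genes with a window. Among genes that only the wider filter reached it was in 17.1% of falls, 15.5% of rises and 15.8% of all, so the difference between falls and the rest was smaller there. The response element of interferon genes was in 5.83% of falls and 19.3% of rises, with 3.49% over all genes. The NF-kB motif, searched as GGGA, any 4 bases and CC, was in 25.0% of falls, 28.3% of rises and 20.5% of all genes. Both strands were searched, matches of different motifs may overlap, a match is not a bound site, and these shares were not tested. Transcript features were described in the same way: the median of the longest coding transcript in GENCODE M21 was 3491 bases for falls, 3220 for rises and 2475 for other tested genes, and without ribosomal protein genes it was 3822, 3220 and 2964.5 bases in that order. The ATTTA motif, which marks unstable mRNAs, had a median of 1.22 matches per kilobase of 3′ untranslated region in falls, 1.97 in rises and 1.31 in other tested genes.

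Membranes of the lysosome and the traffic that feeds it followed in part. Fnip2, a folliculin partner that ties lysosomes to nutrient sensing, had 0 to 4.27 (median 1.49) in T4 libraries, against 7.40 to 19.1 (median 13.8) in T0 libraries (log2 fold change -2.78, SE 0.36, adjusted p = 1.43e-09), without overlap. Laptm5 fell by 0.87 log2, the sorting nexin Snx5 by 2.10 and the endosomal GTPase Rab14 by 0.95. Slc15a3, a lysosomal peptide and histidine transporter, rose by 2.02, and Snx2 by 1.57. Of the proton pump that acidifies the lysosome, the catalytic subunit Atp6v1a (-0.92) and the membrane subunit Atp6v0a1 (-2.04) fell, while Tcirg1, another isoform of the large membrane subunit, rose by 0.81. Over the pump, 3 of 13 low-count subunits were lower and 1 higher in the first scaling, beside 20.9 and 21.5% of all such genes. On the autophagy list 0 of 3 genes in the first filter fell and 1 rose, and 4 of 6 low-count ones fell, beside 19.1%. Autophagy genes Atg7 (-2.49), Atg5 (-1.46) and the mitophagy receptor Bnip3l (-1.62) fell, and the autophagy receptor Tax1bp1 rose by 1.164.

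Genes of lipid and cholesterol handling were mostly lower. Of 5 listed members in the first filter 5 were lower in the first scaling, beside 35.9% of all genes, and 4 in all 5, beside 20.9%. Of 8 low-count members 4 fell and 1 rose, beside 19.1 and 20.4% of all such genes. Soat1, which esterifies cholesterol for storage, had 0 to 6.66 (median 2.16) in T4 libraries, against 3.77 to 23.2 (median 13.2) in T0 libraries (log2 fold change -2.15, SE 0.31, adjusted p = 1.17e-08). The T4 and T0 ranges of Soat1 overlapped. Plin2, which coats lipid droplets, had 4.64 to 20.5 (median 11.7) in T4 libraries, against 21.3 to 41.9 (median 26.0) in T0 libraries (log2 fold change -1.20, SE 0.17, adjusted p = 1.45e-08), without overlap. Nceh1, which hydrolyses stored cholesterol esters, fell by 2.51 log2 and Osbpl8 by 1.35. The cholesterol exporters Abcg1 (-2.23) and Abca1 (-1.55), targets of the liver X receptors, were lower too, and were named after their values were seen. Ch25h, which makes the oxysterol 25-hydroxycholesterol, was the rise: it had 0 counts in T0 libraries and was at least 38.9-fold higher at T4 against a floor of 3 counts over the T0 group. Cholesterol synthesis could not be described at this depth, since 1 of its listed genes was tested.

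**Figure D3:**
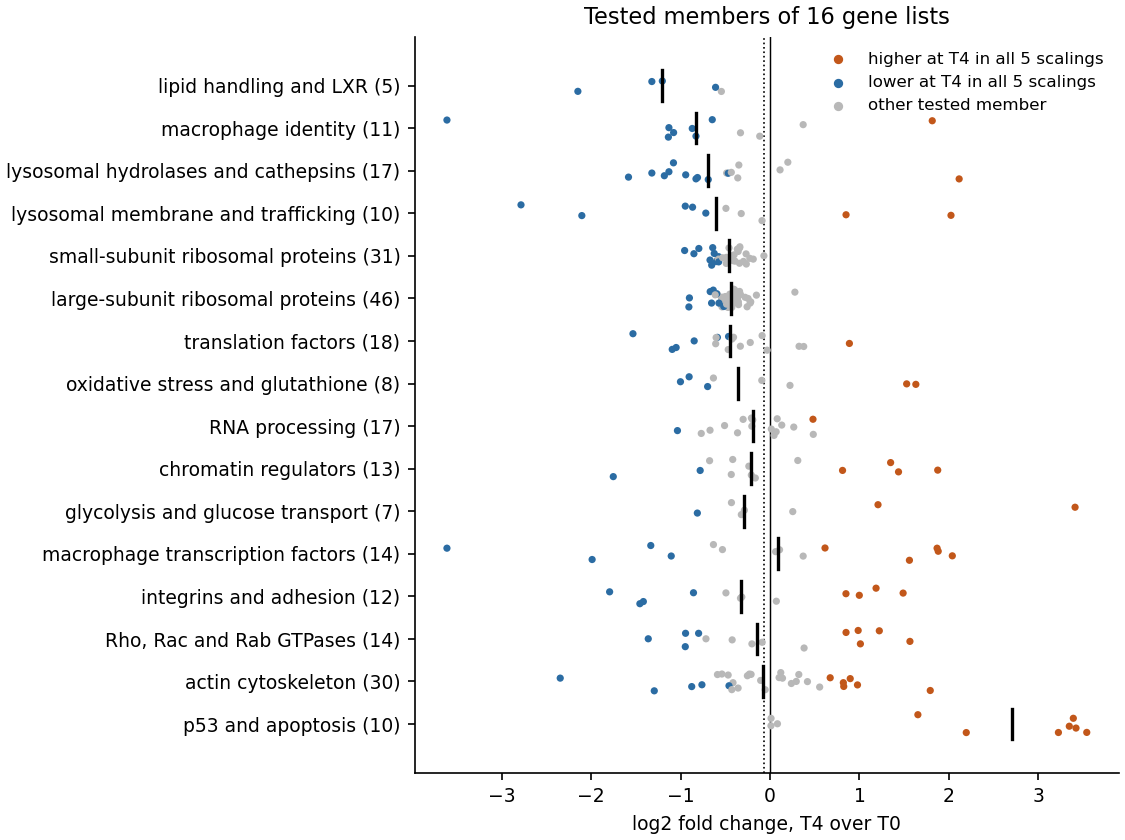
Each point is a tested member of 1 of 16 gene lists, with its fitted log2 fold change, T4 over T0, on the x axis and the number of members in brackets. Black bars are list medians, the dotted line is the median of all 708 genes, and the lists, picked with their values in view from those with at least 5 tested members, run from lipid handling (median -1.20) at the top to p53 and apoptosis (median 2.71) at the bottom.

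Iron and redox genes changed by member. Ftl1, the light chain of ferritin, had 88.5 to 138 (median 115) in T4 libraries, against 248 to 430.0 (median 293) in T0 libraries (log2 fold change -1.47, SE 0.09, adjusted p = 2.94e-21). Fth1, the heavy chain, had 326 to 420.4 (median 371) in T4 libraries, against 339 to 468 (median 383) in T0 libraries (log2 fold change -0.05, SE 0.07, adjusted p = 0.508). The light chain was lower in every T4 library, while the heavy chain's groups overlapped and its sign depended on the scaling. The difference between the chains was not tested. Ncoa4, the receptor that sends ferritin to the lysosome, fell by 1.68 log2, and ceruloplasmin, Cp, which oxidises iron for export, had 199 counts at T4 and 1 at T0. Among antioxidant genes the selenoproteins Sepp1 (-1.001) and Gpx1 (-0.90) fell, and so did Txnip, the inhibitor of thioredoxin (-2.24). Thioredoxin itself, Txn1, rose by 1.630 and the peroxiredoxin Prdx5 by 1.79. Ferritin and ribosomal protein genes have many near-identical pseudogene copies, which the authors' counting could have split, so their levels are uncertain.

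Few respiratory chain genes were called, and other genes of energy metabolism changed by member. In the respiratory chain 3 of 49 low-count subunits were lower and 1 higher in the first scaling, beside 20.9 and 21.5% of all genes that only the wider filter reached. The rise was Cycs, cytochrome c (2.35). The median of the 49 was -0.27 log2, beside -0.07 over all 2623 genes of that filter. Normalised counts of the whole list summed to 232 to 356 (median 273) in T4 libraries, against 313 to 408 (median 366) in T0 libraries. These sums were not tested. In simulated counts the fit with the wider filter called 47.4% of tested genes with a true log2 change of -1. Few calls therefore do not show that the chain was unchanged. Malate dehydrogenase Mdh1 (-1.57) and Idh1, which makes NADPH (-1.06), fell. Ogdh, a citric acid cycle enzyme, rose by 0.86, but by 0.54 (adjusted p = 0.0806) without the 3 libraries of low Rn45s share. Of 7 glycolysis and glucose transport genes in the first filter 1 fell and 2 rose, beside 20.9 and 36.4% of all genes, and of 9 low-count ones 1 fell and 2 rose, beside 19.1 and 20.4%. Slc2a6, of the glucose transporter family, had 11.4 to 31.6 (median 22.3) in T4 libraries, against 0.925 to 4.45 (median 1.89) in T0 libraries (log2 fold change 3.41, SE 0.32, adjusted p = 2.63e-14), and the groups did not overlap. Slc2a1, the main glucose transporter of activated cells, rose by 2.01 log2 and Hk2, the hexokinase that traps glucose, by 1.21. Aldoa, an enzyme further down the pathway, fell by 0.81. In the eicosanoid pathway Ptgs2, the inducible cyclooxygenase, had 43.1 to 77.7 (median 65.7) in T4 libraries, against 0 to 2.23 (median 0) in T0 libraries (log2 fold change 7.02, SE 0.28, adjusted p = 6.14e-30). The partners of the leukotriene and prostaglandin D branches fell: Alox5ap by 1.54, Lta4h by 1.23 and Hpgds by 1.52 log2. Gch1, the first enzyme of tetrahydrobiopterin synthesis (4.43), Nampt, which recycles NAD (2.50), and the arginine transporter Slc7a2 (3.22) rose.

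The translation machinery drifted down by small amounts that hung on the scaling. Of 46 large-subunit ribosomal protein genes 35 were lower in the first scaling, beside 35.9% of all genes, but 8 in all 5, beside 20.9%, with a median of -0.44 log2 that became -0.20 when scaling factors were taken from all genes. For the small subunit 24 of 31 were lower, 10 in all 5 scalings, with medians of -0.46 and -0.22. No ribosomal protein gene was called higher. Rpl3, beside the peptidyl transferase centre, had 3.70 to 19.2 (median 8.57) in T4 libraries, against 12.99 to 26.3 (median 19.0) in T0 libraries (log2 fold change -0.90, SE 0.18, adjusted p = 2.35e-05). Rps3 fell by 0.85 log2. Larger falls were measured in regulators: Eif4ebp2, a repressor of cap-dependent initiation, had 8 counts over the 12 T4 libraries, against 81 over the 12 T0 libraries (log2 fold change -3.38, SE 0.48, adjusted p = 2.72e-09, wider filter), and Eif4b, which helps unwind leaders, had 1.85 to 10.2 (median 6.13) in T4 libraries, against 11.3 to 28.0 (median 15.5) in T0 libraries (log2 fold change -1.53, SE 0.23, adjusted p = 4.16e-08), in normalised counts and without overlap. Eif3a (-1.09) and the nucleolar proteins Npm1 (-1.05) and Ncl (-1.01) fell as well. Of 18 listed translation factors in the first filter 6 fell and 1 rose, beside 20.9 and 36.4% of all genes. Among 18 low-count ones 3 fell and 2 rose, beside 19.1 and 20.4%. On the ribosome biogenesis list 2 of 2 genes in the first filter fell, while 0 of 7 low-count ones fell and 0 rose. Of 6 listed genes of the endoplasmic reticulum in the first filter 2 fell and 1 rose, beside 20.9 and 36.4% of all genes, and of 21 low-count ones 4 fell and 0 rose, beside 19.1 and 20.4%. The rise was the chaperone Hspa5 (1.11), and the falls included the cargo receptor Tmed10 (-1.24) and the lectin chaperone Canx (-0.81), which lost its call with no filter on low counts (-0.57, adjusted p = 0.0778).

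Cytoskeleton and adhesion genes held rises and falls. Actin genes Actb (0.90) and Actg1 (0.82), the bundler Lcp1 (0.82) and the tropomyosin Tpm4 (1.79) rose, while Coro1c, which debranches actin at the leading edge, fell by 2.34 log2. Among 30 members of the actin list in the first filter 5 fell and 6 rose, beside 20.9 and 36.4% of all genes, and among 18 low-count members 0 fell and 6 rose, beside 19.1 and 20.4%. Cd44, the hyaluronan receptor, rose by 1.49 and Vcan, a proteoglycan that binds hyaluronan, had 141 counts over the 12 T4 libraries, against 0 over the 12 T0 libraries. The integrin Itgb5, a partner in uptake of dying cells, fell by 1.79 and Gpnmb, a phagosomal glycoprotein, by 0.86. Myo1f, a leukocyte myosin, fell by 2.08, and the Rac exchange factor Arhgef6 by 2.50, while Rap1b rose by 1.56. Matrix proteases differed by member: Mmp13, collagenase 3, had 79.5 to 124 (median 90.4) normalised counts in T4 libraries and none in T0 libraries, at least 345-fold higher. Mmp14, a membrane-bound collagenase, had 482 counts over the 12 T4 libraries, against 2 over the 12 T0 libraries, and the membrane shedding proteases Adam10 (-1.73) and Adam8 (-1.19) fell.

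Signalling genes near the receptor did not all rise. Cd14 had 32.4 to 59.3 (median 38.1) in T4 libraries, against 0.958 to 18.8 (median 12.9) in T0 libraries (log2 fold change 1.81, SE 0.18, adjusted p = 1.88e-13), and Tlr2 rose by 2.51 log2. Irak4, the first kinase after Myd88, had 8 counts over the 12 T4 libraries, against 74 over the 12 T0 libraries (log2 fold change -3.25, SE 0.51, adjusted p = 4.69e-08, wider filter). Map3k1 (-3.41) and Prkcb, a protein kinase C (-1.82), fell, and the stress kinase Mapkapk2 (2.22) and the PI3-kinase subunit Pik3r5 (1.59) rose. On the Toll-like receptor list 3 of 3 genes in the first filter rose. Of its 11 low-count genes 4 rose and 2 fell, beside 20.4 and 19.1% of all such genes. On the phosphoinositide and kinase list 6 of 10 first-filter genes rose and 1 fell, beside 36.4 and 20.9% of all genes. Of its 21 low-count genes 5 rose and 7 fell. On the p53 and apoptosis list, 7 of 10 members in the first filter rose and 0 fell, beside 36.4 and 20.9% of all genes. They include Cdkn1a, the cell cycle inhibitor p21 (3.39), Cflar, which blocks caspase 8 (2.19), and 3 copies of the anti-apoptotic Bcl2a1, of which Bcl2a1b rose by 3.54. These copies are near-identical and cannot be told apart by 3′ counts with certainty. Ccnd2, a G1 cyclin, rose by 6.59, while the proliferation marker Mki67 fell by 1.36.

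Presentation genes and nuclear RNAs closed the picture. The immunoproteasome subunits Psmb8 (1.71) and Psmb10 (2.79), the activator Psme2 (2.12) and the peptide transporter Tap1 (3.25) rose, and Psmd1, a regulatory subunit of the standard proteasome, fell by 1.31 log2. Complement C3 rose by 3.61 and the inhibitory and activating Fc receptors Fcgr2b and Fcgr1 by 3.42 and 2.64. Fcer1g, the gamma chain of Fc receptors, rose by 0.67, whereas C1qc (-0.68) and Tyrobp, the adaptor of Trem2 (-0.87), fell. With no filter on low counts C1qc lost its call (-0.45, adjusted p = 0.0572). Neat1, the scaffold RNA of paraspeckles, fell by 2.14 and Malat1, an RNA of nuclear speckles, by 0.86, and the noncoding AW112010 rose by 5.80. All 29 interferon-stimulated and all 29 inflammatory genes in the first filter rose, beside 36.4% of all genes, and genes of these lists with few counts at T0 passed the filter through their counts at T1 and T4, and could then hardly fall. Rsad2 had 848 to 1218 (median 1013) in T4 libraries, against 1.11 to 13.8 (median 6.36) in T0 libraries (log2 fold change 7.33, SE 0.14, adjusted p = 7.95e-45). Il1b rose by 7.19 log2.

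Most falls came after T1. Between T1 and T0, 37 of 708 genes (5.23%) were lower and 132 (18.6%) higher. In the direct test of T4 against T1, 212 (29.9%) were lower and 227 (32.1%) higher. Of the 148 genes that had fallen at T4 against T0, 131 were also lower at T4 than at T1 and 19 were already lower at T1, and of the 258 that had risen 120 were already higher at T1, 201 were higher at T4 than at T1 and 20 lower. The comparisons share T4 or T0 libraries, so these counts are no independent support for each other. Lrp1 had 21.8 to 60.7 (median 37.9) at T1, close to T0 (T1 against T0 -0.32 log2, adjusted p = 0.0948; T4 against T1 -2.09, adjusted p = 1.37e-16). Rgs2 was early, at -1.70 log2 already between T1 and T0 (adjusted p = 7.41e-09). Zfp36l1, an RNA-binding protein that promotes decay of AU-rich mRNAs, turned: it was 1.23 log2 higher at T1 than at T0 (adjusted p = 0.00101) and -4.67 at T4 against T1 (adjusted p = 7.27e-17), with 67, 155 and 6 counts at T0, T1 and T4. Txnip turned the other way, with 202, 18 and 52 counts at those times, which fell by 3.42 log2 at T1 (adjusted p = 2.83e-13) and rose by 1.18 from there to T4 (adjusted p = 0.0233). Klf6 was high at both later times (T4 against T1 -0.15, SE 0.13, adjusted p = 0.320), and Ptgs2 rose at each step.

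**Figure D4:**
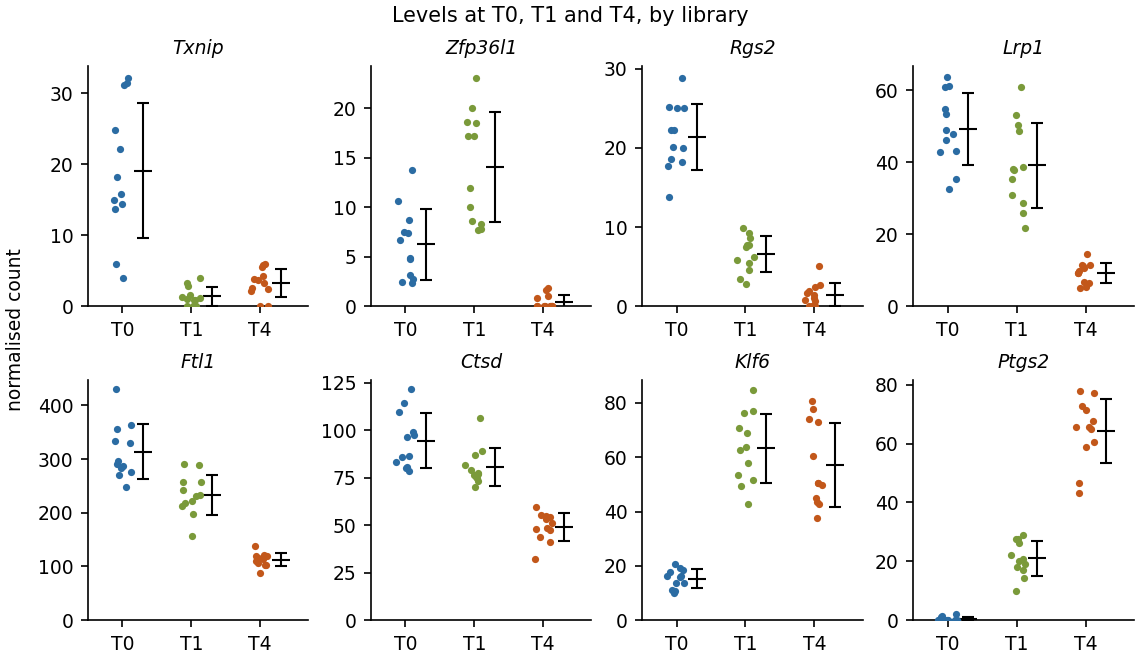
Normalised counts of 8 genes in each control library at T0, T1 and T4, in time order, with mean and SD. Lrp1, Ftl1 and Ctsd lie lowest at T4, Rgs2 and Txnip are already low at T1, Zfp36l1 peaks at T1, and Klf6 and Ptgs2 are high at both later times.

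Low-count genes added further falls of the same kinds. The lysoplasmalogenase Tmem86a had 4 counts over the 12 T4 libraries, against 128 over the 12 T0 libraries (log2 fold change -4.79, SE 0.46, adjusted p = 6.93e-16), and the groups did not overlap. Lair1, an inhibitory collagen receptor (-2.64), Frrs1, a membrane ferric reductase (-2.36), and Wwp1, a ubiquitin ligase (-2.48), fell too. Of the 1915 genes that only the wider filter reached, 400 (20.9%) were called lower in its first scaling. Of these, 104 fell past 4-fold and 10 past 16-fold, where low counts make sizes imprecise. Rises past these sizes were not counted. A gene with few counts at T4 passed that filter through its counts at T0 or T1.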

How the data were processed

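The 120 macrophage libraries are 3′ digital gene expression libraries (a modified SCRB-Seq with a modified Nextera step, per the labels' protocols), and the 36 control libraries (12 each at T4, T1 and T0) were used here. The deposited table holds a raw count per gene symbol (23481 symbols) and library, made by the authors with BWA on mm10, per the submitters' processing notes. The counting program, annotation, strand setting and any molecular identifiers were not given in the sources used here, and intervals cover counting error only.

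Tests on the counts used edgeR 4.0.16 under R 4.3.3 (quasi-likelihood, TMM scaling after filterByExpr with a minimum count of 10, or 3 for the wider filter) in 1 fit of 36 libraries, two-sided, with Benjamini-Hochberg adjustment over all genes tested at 0.05. SE was taken as the size of the log2 fold change over the root of its F statistic. Other scalings were median of ratios, TMM without structural RNAs, TMM before the filter and TMM with library totals kept. DESeq2 1.42.0 was an alternative. Library measures were compared by two-sided permutation of labels with 100000 resamples. The fits were tested on simulated data.

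The genes compared and the 53 gene lists were chosen with earlier results of these data known. Named genes were the 20 largest falls and 10 largest rises above the median level, the 5 members (or fewer) per list of smallest adjusted p, up to 2 abundant members that did not follow the list, and the 10 largest falls of the wider filter. Not all of them are printed. Mef2a, Cst3, Cstb, Grn, Psap, Laptm5, Isg15, Abcg1, Abca1, Fcer1g, Irf8, Ccrl2 and, as chemokine receptors, Cxcr2, Xcr1 and Ccr7 were named after their values were seen. Promoter windows and gene positions came from RefSeq on GRCm38.p6, the assembly of mm10, where 2615 of 2623 symbols matched, and transcripts from GENCODE M21. No 2 replicate libraries were identical in 198 pairs compared.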

Additional observations from a re-analysis of the deposited data

How the results depend on the processing

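The count of 254 lower genes at T4 against T0 became 148 with TMM factors taken before the filter, 99 when a fold over 1.5 was tested, and 1183 of 12496 genes with no filter on low counts, which tests more genes. The count of 268 higher genes became 1011 with no filter. Under median-of-ratios scaling (200 lower and 288 higher), DESeq2 (201 and 289), TMM with library totals kept (283 and 258), no structural RNAs (263 and 283 of 758), T4 and T0 libraries only (237 and 242 of 617) and without the 3 libraries of low Rn45s share (303 and 288 of 824), counts stayed within 1.5 times of the first, as did every alternative run for the wider filter and for T4 against T1. With the replicate number as a block, 259 genes were lower and 271 higher. Same-numbered T4 and T0 libraries correlated in their deviations from -0.03 to 0.29 over 12 pairs, with 6 over 0.1. Of the 12, 4 were closest to their own number, so the number was not treated as a pairing. Leaving out Fcer1g, Irf8, Ccrl2, Cxcr2, Xcr1, Ccr7 and genes given only as cell type markers, the text names 164 genes. The block changed no call among them. DESeq2, no filter and library totals kept were compared only for genes of the first filter. Library totals kept covered 105 of the 164, and T4 and T0 libraries only covered 91. Low-count genes were therefore checked in fewer alternatives. In the alternatives run for each gene, 155 kept their direction and side of the threshold. The others were Fth1, Ogdh, Canx and C1qc (given above), Cst3, Cstb and Grn, which lost their calls, and Npc2, which gained one, under some scalings, and Rn45s (-0.15, adjusted p = 0.270) with TMM before the filter. Fth1, not called, turned positive with DESeq2 (0.0677), median of ratios (0.0680), TMM before the filter (0.18, adjusted p = 0.0427, which passes) and no filter (0.18). The cause of these shifts was not tested. Leaving out libraries under 30000 counts was planned, but no control library was that shallow. At this depth most of the 23481 symbols could not be tested, and low genes rest on few counts.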

Other observations

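Gene groups not described above moved by member. Among calcium-binding proteins, annexins and galectins 5 of 16 tested genes fell and 3 rose in all 5 scalings, beside 20.9 and 36.4% of all genes. Calmodulin Calm2 (-0.99), the galectin Lgals3 (-0.55) and the nuclear lamin Lmna (-1.13) fell, and Lgals9, another galectin, rose by 2.46 log2. Of 17 RNA processing genes in the first filter 1 fell and 1 rose, beside the same shares, and of 31 low-count ones 3 fell and 4 rose, beside 19.1 and 20.4%. The splicing factor Tra2a rose by 2.45, and the nuclear ribonucleoproteins Hnrnpu (-1.03) and Hnrnpr (-1.72) fell. The co-chaperone Dnaja1 rose by 1.80, and Hspa9, which pulls proteins into mitochondria, fell by 1.08. Tubulin Tubb5 fell by 1.51 and the kinesin Kif5b rose by 0.89. Acsl1, an enzyme of fatty acid activation, rose by 2.30.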
